A study of Homo sapiens with 4 samples.

Results

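The proteasome genes described here are those whose annotated symbol is PSMA, PSMB, PSMC, PSMD, PSME or PSMF followed by a number, without the inducible PSMB8 and PSMB9. On the array 39 of the 42 such genes in RefSeq had a probe set naming 1 gene, out of 18417 genes in all, and PSMC5, PSMD7 and PSMD13 were not analysed here. RNA came from monolayers of MCF12A, an established non-tumorigenic human breast epithelial line, and was measured on 4 arrays of the Affymetrix Human Gene 1.0 ST type, each of which reads transcripts with many short probes along the gene. One culture had 25 mM ethanol for 1 week and was set against control 1, an unexposed culture of the ethanol experiment. Another had 2.5 mM acetaldehyde, which cells make when they oxidise ethanol, for 1 week and was set against control 2, an unexposed culture of the acetaldehyde experiment. All 4 cultures shared a medium with insulin, cholera toxin, hydrocortisone, horse serum and epidermal growth factor. With 1 array per arm the differences below have no replicate check and no test of their own, and their precision is limited by the number of arrays.

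The proteasome degrades proteins that carry ubiquitin chains. Its barrel, the 20S core, has outer rings of alpha subunits (PSMA), which gate the entrance, and inner rings of beta subunits (PSMB), of which PSMB5, PSMB6 and PSMB7 carry the catalytic sites. A regulatory particle caps the barrel. Its base holds a ring of ATPases (PSMC) that unfold the substrate, and its lid (most PSMD genes) includes the enzyme that removes ubiquitin. Activators of the PSME family can replace that cap, and interferon induces both PSME1 with PSME2 and the alternative catalytic subunits PSMB8, PSMB9 and PSMB10, which form the immunoproteasome and favour peptides for MHC class I.

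The median intensity over 33297 probe sets was 90.2 with ethanol and 92.2 in control 1, and 113.0 with acetaldehyde and 113.8 in control 2. Sorted log2 values lay on average 0.0398 apart between ethanol and control 1 and 0.0268 apart between acetaldehyde and control 2, but 0.270 to 0.285 apart for any arrays taken from both experiments, so setting control 2 against control 1 crosses a difference in scale. All 8 breast epithelial markers on the array passed the filter for dim genes (an intensity of 155 on at least 1 array), with summed intensities of 30181 with ethanol and 28915 in control 1, and 22210 with acetaldehyde and 24029 in control 2. Of the fibroblast, endothelial, leukocyte and adipocyte markers, 2 of 7, 0 of 4, 1 of 5 and 0 of 3 passed. The fibroblast sum was 459 with ethanol and 552 in control 1, and 877 with acetaldehyde and 901 in control 2. The leukocyte sum was 409 with ethanol and 327 in control 1, and 339 with acetaldehyde and 458 in control 2. That list's defining gene PTPRC, the common leukocyte antigen, had between 10.3 and 15.9 on the 4 arrays. In bulk RNA, fewer cells of a type and less RNA per cell cannot be told apart.

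Of the 39 proteasome genes 36 passed the filter, 35 of them on all 4 arrays and PSMD4 on 3. The testis form PSMA8, the thymus form PSMB11 and the inducible PSMB10 did not. RefSeq (GRCh38.p14) gave a promoter window of 300 bases, 250 before the start of transcription to 50 after it, for 34 of the 39. These were searched on both strands for an interferon-stimulated response element core (GAAA, any 2 bases, GAAA), chosen after the expression values were seen, for the core of the antioxidant response element, TGACNNNGC, to which NFE2L1 and NFE2L2 bind, and for the CCAAT box, CCAAT. No pattern contains another, and genes with several annotated starts counted once. The interferon element core occurred in the windows of 5 of the 34 genes (14.7%), against 3.55% of the 8393 genes that passed the filter and had a window and 4.38% of all 27305 genes with a window. The 5 were PSMA4, PSMB4, PSMB10, PSME1 and PSME2. In PSME1 the match lay on the minus strand at bases 5 to 14 after the start, where the strand of the gene reads TTTCGCTTTC. The other matches lay upstream. In PSME2 and PSMB10 they spelled the same 10 letters close to the start, as did the PSME1 match when read on its minus strand. The 100 upstream bases around these matches are shown because PSME2 differed most with ethanol and PSMB4 and PSMB10 hold the same pattern. Capitals mark the match, and a match is a description of letters, not a binding site.
PSME2, chr14:24146611-24146710, minus strand: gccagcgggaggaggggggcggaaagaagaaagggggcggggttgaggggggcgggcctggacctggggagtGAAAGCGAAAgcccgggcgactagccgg
PSMB10, chr16:67936851-67936950, minus strand: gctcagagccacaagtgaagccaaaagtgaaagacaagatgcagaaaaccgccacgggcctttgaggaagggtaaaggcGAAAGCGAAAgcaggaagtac
PSMB4, chr1:151399460-151399559, plus strand: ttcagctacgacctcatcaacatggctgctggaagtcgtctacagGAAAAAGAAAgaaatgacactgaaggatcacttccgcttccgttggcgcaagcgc

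TGACNNNGC occurred in 11 of the 34 windows (32.4%), against 19.4% of the genes that passed the filter and 16.1% of all genes with a window. CCAAT occurred in 16 (47.1%), against 42.9% and 39.7%. The 11 were PSMA4, PSMB3, PSMC4, PSMD1, PSMD3, PSMD5, PSMD9, PSMD12, PSME1, PSME2 and PSME4. A core subunit and 2 lid subunits with the match upstream are shown, with TGACNNNGC in capitals, as examples from groups that differed by unequal amounts with ethanol.
PSMB3, chr17:38752591-38752690, plus strand: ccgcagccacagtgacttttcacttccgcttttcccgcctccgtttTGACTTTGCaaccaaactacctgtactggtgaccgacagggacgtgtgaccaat
PSMD3, chr17:39980707-39980806, plus strand: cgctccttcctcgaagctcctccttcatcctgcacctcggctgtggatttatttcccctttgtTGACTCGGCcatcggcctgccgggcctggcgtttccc
PSMD12, chr17:67366689-67366788, minus strand: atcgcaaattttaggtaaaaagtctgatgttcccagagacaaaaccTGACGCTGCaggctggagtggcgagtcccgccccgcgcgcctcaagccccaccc

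After 1 week in ethanol nearly all proteasome transcripts were higher than in control 1. Among the 36 genes that passed the filter, 34 were above control 1, against 57.8% of all 10373 genes that passed. Their median log2 difference was 0.32, against 0.05 for all genes. They also lay closer together, with an SD over genes of 0.25 against 0.46 for all genes. At least 1.5-fold higher were 3 of 36, against a background of 5.44%, and 0 of 36 were at least 1.5-fold lower, against 4.22%. PSME2 alone was at least 2-fold higher, against 1.17%. At a log2 difference of 0.322 or more, 18 were higher, against 17.1% of all genes, and 0 lower, against 10.5%. Over all 39 genes, dim ones included, 36 were above control 1, against 47.7% of genes without the filter. Intensity was above both controls with ethanol for 33 of 36, against 35.2% of all genes, and below both for 0, against 28.1%. That count largely follows from the one against control 1. Of the 36 genes 28 were lower in control 2 than in control 1, against 45.5% of all genes. Control 2 is on another scale, and after normalizing all 4 arrays together the count above both was 29, against 29.2%. Of the 57 cytosolic ribosomal protein genes that passed the filter, another set of abundant complex subunits, 15 were above control 1, with a median of -0.03. Their SD over genes was 0.14, so a narrow spread was not particular to the proteasome genes.

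**Figure D1:**
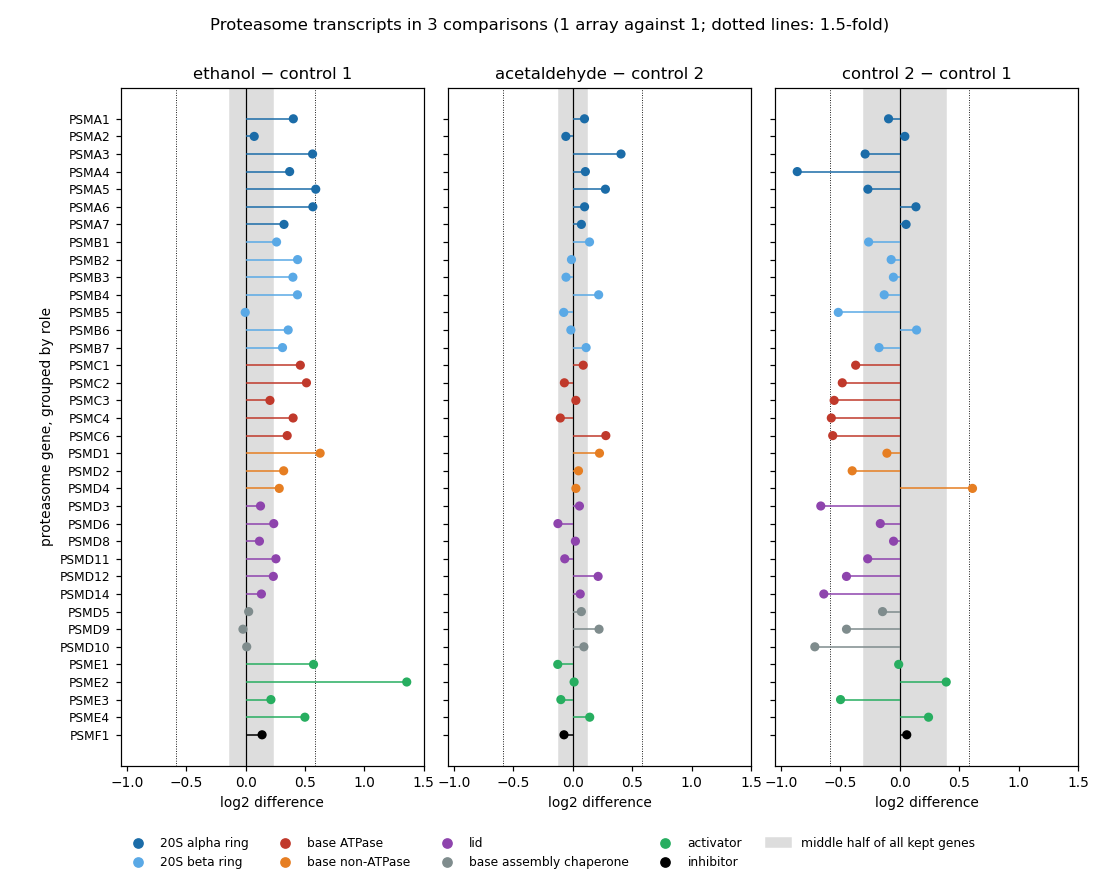
Log2 difference (x axis) of the 36 proteasome genes that passed the filter (rows, coloured by role) for ethanol minus control 1, acetaldehyde minus control 2 and control 2 minus control 1, each 1 array against 1. The grey band runs from the lower to the upper quartile of all 10373 genes and dotted lines mark 1.5-fold. With ethanol 34 of 36 points lie right of 0, whereas all 5 ATPase and all 6 lid genes lie left of 0 between the controls.

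In the alpha ring all 7 genes were above control 1, with a median difference of 0.40. PSMA5 had an intensity of 662 with ethanol and 440 in control 1, and 442 with acetaldehyde and 365 in control 2. PSMA3 had 1763 with ethanol and 1193 in control 1, and 1291 with acetaldehyde and 974 in control 2. PSMA6 was higher by 0.57, PSMA1 by 0.40, PSMA4 by 0.37 and PSMA7 by 0.32, while PSMA2 stood at 0.07, so the ring was uneven. PSMA5, just past 1.5-fold, and PSMA3, at 1.48-fold, were thus highest on the ethanol array and above their own control under both exposures. The same held for PSMA1, PSMA4, PSMA6 and PSMA7.

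In the beta ring 6 of 7 genes were above control 1, with a median of 0.36. The catalytic subunits parted against control 1. PSMB6, the caspase-like site, had 4049 with ethanol and 3160 in control 1, and 3445 with acetaldehyde and 3484 in control 2. PSMB7, the trypsin-like site, had 2339 with ethanol and 1887 in control 1, and 1806 with acetaldehyde and 1671 in control 2. PSMB5, the chymotrypsin-like site and the main target of bortezomib, had 2449 with ethanol and 2456 in control 1, and 1626 with acetaldehyde and 1714 in control 2. PSMB5 was thus the beta gene nearest 0 for ethanol against control 1, and PSMB6 and PSMB7 were higher by 0.36 and 0.31. With ethanol against control 2, after normalizing all arrays together, PSMB5 was at 0.37, PSMB7 at 0.33 and PSMB6 at 0.14. The order of the catalytic subunits thus depended on the control used. Against control 1 the structural subunits PSMB2 (0.44), PSMB4 (0.44), PSMB3 (0.40) and PSMB1 (0.26) completed the ring. The dim PSMB10 had 133 with ethanol and 111 in control 1, and 87.2 with acetaldehyde and 98.6 in control 2.

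The regulatory particle was higher by less in its lid than in its base. All 5 ATPase genes were above control 1 (median 0.40, from 0.20 for PSMC3 to 0.51 for PSMC2), and 4 of the 5 by at least 0.322. One of the 4 was PSMC6, at 0.35, which was at 0.15 over the mean of its 2 probe sets and at -0.05 in the other set alone. All 6 lid genes were above control 1, but by a median of 0.18, from 0.12 for PSMD8 to 0.25 for PSMD11, and 0 of 6 reached 0.322. PSMD14, the deubiquitinase of the lid, was at 0.13. In the base, PSMD1, a large scaffold subunit, had 1426 with ethanol and 924 in control 1, and 1001 with acetaldehyde and 856 in control 2. Its ethanol level was 1.54-fold that of control 1, second only to PSME2 among the proteasome genes. The other scaffold, PSMD2, was at 0.32 and the ubiquitin receptor PSMD4 at 0.28. The chaperones that assemble the base differed by almost nothing from control 1, with PSMD5 at 0.02, PSMD10 at 0.01 and PSMD9 at -0.02. With ethanol against control 2, after normalizing all 4 arrays together, PSMD10 was at 0.55, PSMD9 at 0.54 and PSMD5 at 0.03. PSMD9 had 243 with ethanol and 247 in control 1, and 211 with acetaldehyde and 181 in control 2. No difference between these roles was tested.

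The activators held the largest difference. PSME2, the beta chain of the interferon-inducible activator, had an intensity of 1086 with ethanol and 424 in control 1, and 560 with acetaldehyde and 556 in control 2. The ethanol array thus stood above the other 3, at 2.56-fold its control, and only 0.299% of all genes that passed the filter were further up. RefSeq lists 6 pseudogene copies of PSME2 and at least 1 for 19 of the 39 genes, and whether the probes read them was not tested. PSME1, its alpha partner, had 1297 with ethanol and 873 in control 1, and 794 with acetaldehyde and 867 in control 2, so it was highest with ethanol (1.49-fold) and lowest with acetaldehyde. PSME4, a large nuclear activator, was higher by 0.50 and the nuclear PSME3 by 0.21. The inhibitor PSMF1 was at 0.14. PSME1 and PSME2 lie close to each other on chromosome 14 with EMC9 between them, and RNF31 starts on the other strand just upstream of PSME2. These neighbours, looked up after the values were seen, stood at 0.15 for EMC9 and 0.16 for RNF31.

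**Figure D2:**
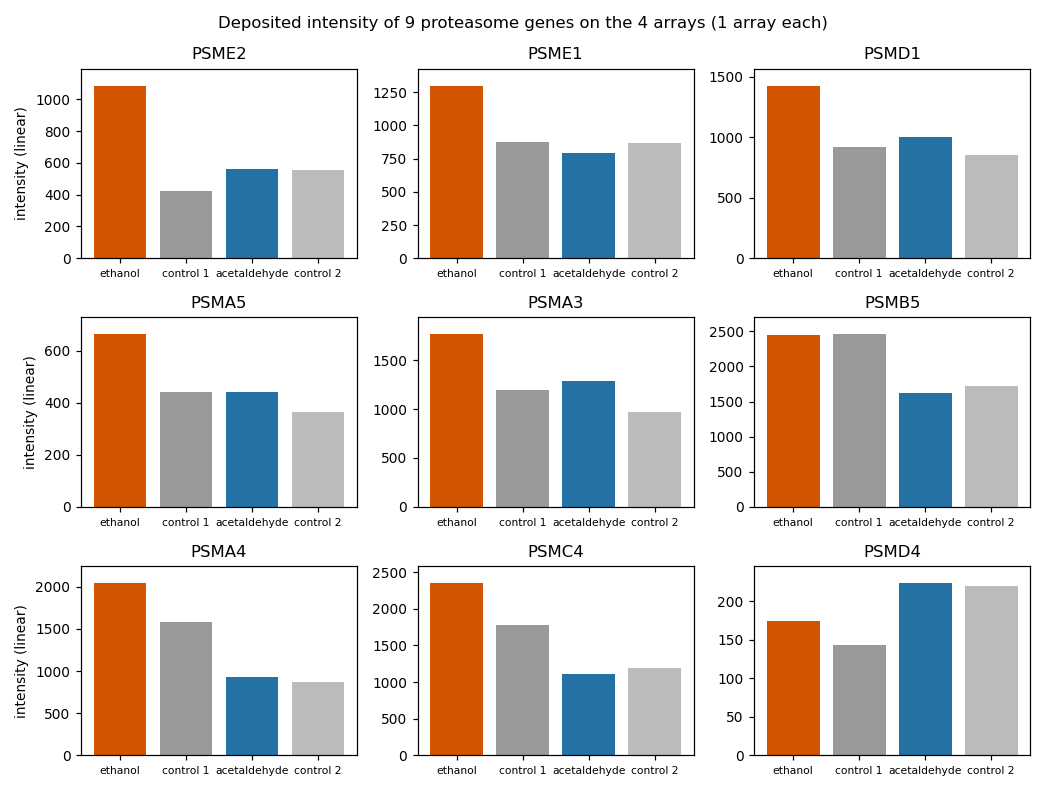
Deposited intensity (linear, y axis from 0, its own scale in each panel) of 9 proteasome genes on the ethanol, control 1, acetaldehyde and control 2 arrays, 1 array per bar. PSME2 stands at 1086 with ethanol and between 424 and 560 on the other arrays, whereas PSMB5 is about equal within each pair and lower in the acetaldehyde experiment.

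The immunoproteasome and peptide-loading genes, listed together with PSME1 and PSME2, lay mostly above control 1 with ethanol. Of the 16 genes listed 12 were on the array, of which 11 were above control 1, against 47.7% of genes without the filter, and 8 at least 1.5-fold higher, against 3.90% of all 18417 genes without the filter, with a median of 0.83. PSMB8, the inducible counterpart of PSMB5, had 273 with ethanol and 109 in control 1, and 98.9 with acetaldehyde and 113 in control 2. PSMB9, the counterpart of PSMB6, had 217 with ethanol and 127 in control 1, and 122 with acetaldehyde and 118 in control 2. Both passed the filter on the ethanol array alone, as did ERAP1, and PSMB8 and PSMB9 each had 3 probe sets with identical values. The others, named after their values were seen, were the trimming peptidase ERAP1 (1.30), the transcription factor IRF1 (1.12), the loading factor TAPBP (0.94), the class I light chain B2M (0.90), the transporter chains TAP1 (0.67) and TAP2 (0.10), and the class I regulator NLRC5, dim and at -0.02. For TAPBP control 2 was above control 1 by 1.19, more than ethanol was. Of the 5 leukocyte markers 2 were above control 1 (median -0.08), and the higher sum with ethanol came from CD14, with 287 with ethanol and 189 in control 1, whose part in these results was not tested. With acetaldehyde 5 of the 12 were above control 2, against 45.2% of all genes without the filter, with a median of -0.14.

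**Figure D3:**
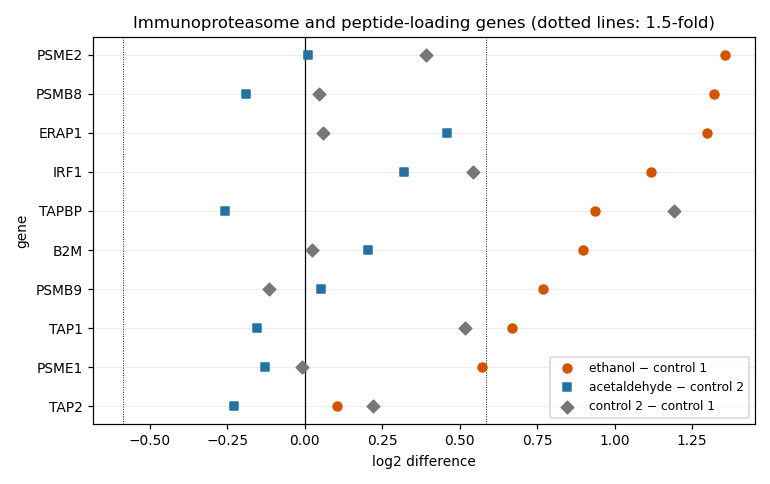
Log2 difference (x axis) of the 10 immunoproteasome and peptide-loading genes that passed the filter (rows) for ethanol minus control 1 (circles), acetaldehyde minus control 2 (squares) and control 2 minus control 1 (diamonds), each 1 array against 1, with dotted lines at 1.5-fold. Circles reach 1.36 for PSME2 and 1.32 for PSMB8, whose squares lie at 0.01 and -0.19. PSMB8, PSMB9 and ERAP1 passed the filter on the ethanol array alone. The dim PSMB10 (0.26 with ethanol) and NLRC5 (-0.02) did not pass and are not shown.

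The lists of factors that build or serve the proteasome are read against the 57.8% of all genes above control 1 and the 50.7% above control 2. Of 13 assembly and associated factors that passed the filter 10 were above control 1 with ethanol (median 0.17), led by POMP, the maturation factor of the core, at 0.45, and the proteasome-bound thioredoxin TXNL1 at 0.31. The lowest of the 3 below control 1 was AKIRIN2, at -0.31, named after its value was seen. With acetaldehyde 11 of 13 were above control 2 (median 0.08). Of 11 genes of ubiquitin supply and delivery 8 were above control 1 (median 0.17), with the autophagy receptor SQSTM1 at 0.99 and the shuttle UBQLN2 at -0.32. Of the 6 regulators of proteasome transcription 2 were above control 1 (median -0.09). Among them NFE2L2, the oxidative stress factor, was at -0.43 and NFE2L1, which drives the proteasome recovery response, named after its value was seen, at 0.21, and with acetaldehyde the deglycosylase NGLY1 was at 0.28. Of 10 antioxidant targets of NFE2L2 7 were above control 1 (median 0.18), with GCLC, an enzyme of glutathione synthesis, at 1.23 and the cystine importer SLC7A11 at -1.18. Control 2 differed from control 1 by more than ethanol did, in the same direction, for GCLC (1.61), SLC7A11 (-1.43), AKIRIN2 (-0.41) and NFE2L1 (0.35). It differed by less for SQSTM1 (0.71) and NFE2L2 (-0.23), and POMP (-0.36), TXNL1 (-0.70) and UBQLN2 (0.52) ran the other way.

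With acetaldehyde the proteasome transcripts differed little from control 2. Of the 36 genes 24 were above control 2, against 50.7% of all genes, with a median of 0.06 against 0.00, and 0 were at least 1.5-fold higher or lower, against 0.742% and 0.974% of all genes. At a log2 difference of 0.322 or more, 1 was higher, against 5.45%, and 0 lower, against 5.75%. The 1 gene was PSMA3, at 1.33-fold, followed by the ATPase PSMC6, at 1.21-fold. PSMC6 had 829 with ethanol and 651 in control 1, and 534 with acetaldehyde and 440 in control 2. Its other probe set stood at -0.09 with acetaldehyde, so this gene is uncertain. The copies listed number 3 for PSMC6 and 13 for PSMC1. The 2 probe sets of PSMC1 stood at 0.46 and 0.47 with ethanol. At the low end with acetaldehyde were PSME1 (-0.13) and PSMD6 (-0.13), a lid subunit with 457 with ethanol and 388 in control 1, and 317 with acetaldehyde and 346 in control 2.

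By role, the median with acetaldehyde was 0.10 in the alpha ring (6 of 7 above control 2), -0.01 in the beta ring (3 of 7), 0.03 for the ATPases (3 of 5), 0.04 in the lid (4 of 6) and -0.04 for the activators (2 of 4). The assembly chaperones, nearest 0 with ethanol, were all above control 2, with PSMD9 at 0.22, PSMD10 at 0.09 and PSMD5 at 0.07. Acetaldehyde intensity lay above both controls for 10 of 36 genes, against 30.1% of all genes, below both for 11, against 24.9%, and between them for 15.

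The difference was larger in size with ethanol than with acetaldehyde for 32 of the 36 genes, against 64.8% of all genes, and 23 were above their own control under both exposures, against 35.4%. The signs were opposite for 12 of 36, against 37.7% of all genes. These 2 differences share no array. Across the 36 genes, which share those 4 arrays, they correlated with r = 0.14 (rho = 0.20), and with r = 0.26 without PSME2, against r = 0.39 across all 10373 genes. A limma fit of either exposure against control over all genes, with the experiment as a block, asked whether a gene moved the same way under both. At an adjusted p under 0.05 it called 0 of 36 proteasome genes and 0.00% of all genes. At an unadjusted p under 0.05 it found 5 of the 36 higher (PSMA3, PSMA5, PSMD1, PSMC6 and PSMB4), against 5.46% of all genes, and 0 lower, of 1024 genes in either direction. The smallest adjusted p from limma among the 36 was 0.495, for PSMA3, which was higher under 2 of 2 exposures. The mean difference of PSMA3 was 0.48, with an SE of 0.12 that limma moderated with the spread of all genes.

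**Figure D4:**
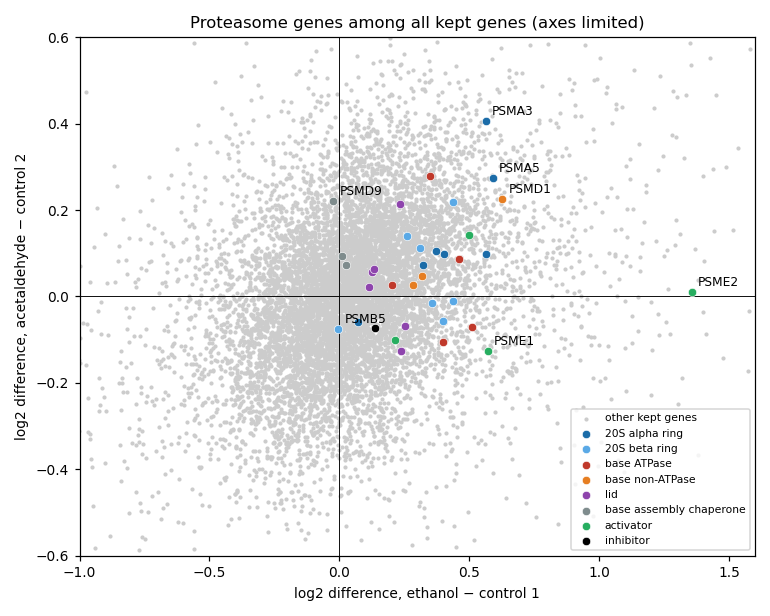
Log2 difference of each gene for acetaldehyde minus control 2 (y axis) against ethanol minus control 1 (x axis), with proteasome genes coloured by role over the other genes that passed the filter in grey and both axes limited to the central range. Most proteasome genes lie right of 0 and within 0.25 of 0 on the y axis, with PSMA3 at 0.56 and 0.41 and PSME2 at 1.36 and 0.01.

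The arrays of the unexposed cultures themselves differed in proteasome transcripts, by unequal amounts in the roles. With 1 array against 1, neither this difference nor that between roles was tested. Each control here also served as the control of one exposure above. Of the 36 genes 8 were above control 1 in control 2, against 54.5% of all genes, and 28 below it, against 45.5%, with a median of -0.22 against 0.06. At least 1.5-fold lower were 4 of 36, against 12.9%, and 1 was at least 1.5-fold higher, against 14.9%. At a log2 difference of 0.322 or more, 14 were lower, against 24.0%, and 2 higher (PSMD4 and PSME2), against 29.6%. At 2-fold 0 were lower, against 4.85%, and 0 higher, against 4.25%. The fibroblast marker DCN had 177 in control 2 and 34.8 in control 1. Of the 8 breast epithelial markers 3 were at least 1.5-fold lower in control 2, against 12.9%, and 1 higher, against 14.9%. KRT14 had 1587 in control 2 and 5075 in control 1, CDH1 1025 and 2572, and EPCAM 370 and 859. KRT19, the higher one, had 184 in control 2 and 103 in control 1. The part of these markers in the results was not tested. All 5 ATPase genes were lower, within a narrow range from -0.37 to -0.58 (median -0.55), and PSMC4 had 1195 in control 2 and 1783 in control 1. All 6 lid genes were lower too (median -0.36). Of these, PSMD3, a lid scaffold, had 1457 in control 2 and 2311 in control 1, with 1515 under acetaldehyde and 2519 under ethanol. PSMD14 had 1013 in control 2 and 1579 in control 1, with 1058 under acetaldehyde and 1730 under ethanol. For both lid genes the acetaldehyde and control 2 arrays lay below the ethanol and control 1 arrays.

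The core differed less between the controls, with medians of -0.10 in the alpha ring and -0.13 in the beta ring, but it held the lowest gene. PSMA4 had 869 in control 2 and 1582 in control 1, with 935 under acetaldehyde and 2044 under ethanol. The chaperone PSMD10, also known as gankyrin, had 1212 in control 2 and 1991 in control 1, with 1293 under acetaldehyde and 2003 under ethanol. PSMD4 ran the other way, at 220 in control 2 and 144 in control 1, with 224 under acetaldehyde and 175 under ethanol, and it lay near the filter. After normalizing all 4 arrays together, the median between controls was -0.48 for the ATPases and -0.31 for the lid, but 0.02 for the alpha ring and -0.01 for the beta ring, and PSMD4, PSMD3 and PSMD14 were no longer 1.5-fold apart, while PSMD9 passed it at -0.61. All 5 ATPase and 5 of 6 lid genes were then lower in control 2, while the medians of both core rings lay near 0 and that of the alpha ring turned positive.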

How the data were processed

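RNA of 4 MCF12A cultures (1 per arm) was measured on 4 arrays, and groups and pairs came from the labels. The values the authors deposited are linear intensity, 1 for each probe set on each array. RMA is named per the submitters' processing notes, and its version is not given in the sources used here. Distributions and shared values point to separate normalization of the pairs. For this report log2 was taken with no offset. The platform annotation gave 1 symbol for 19460 of 33297 probe sets, several for 1754 and none for 12083. Where probe sets of a gene competed, that of highest mean was taken, and a gene passed the filter if its highest value reached the median of gene-naming values (intensity 155). The deposited table held 0 columns of other samples.

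Differences of 1 array against 1 have no test and are read against the share of all genes that pass the same rule. The fit used lmFit and eBayes of limma 3.58.1 (R 4.3.3) with Benjamini-Hochberg adjustment over 10373 genes at 0.05, the experiment as a block and 1 residual degree of freedom. The labels give separate samples and no more, so a p-value here reflects only the spread of these arrays, which may be technical, and 2 different agents stand in for replicates. Tested on simulated data of 10373 genes, this fit called 72 of 100 genes changed by 1 log2 unit, 100 of 100 changed by 3 and 9 of 10173 unchanged ones. Lists were read without the filter for the immunoproteasome genes, 3 of which passed it through the ethanol array alone. The alternatives were joint quantile normalization, centring, an offset of 50, no filter, the mean of probe sets, other folds, the other experiment's control, a trended prior and no block. The proteasome genes and the lists were chosen with earlier results of these data known. Named with values on all arrays are the 2 highest and 2 lowest genes of each comparison, those at least 1.5-fold apart, PSMB5, PSMB6, PSMB7, PSME1 and PSME2. Other lists name the 2 genes with the largest difference. Array values of PSMC4 and PSMB10, the other peptide-loading genes, NFE2L1, AKIRIN2, the breast epithelial markers named between the controls and the neighbours of PSME2 were added after their values were seen. Promoters and gene names came from RefSeq tables of assembly GRCh38.p14. Python 3.11.15 with matplotlib 3.10.9 drew the figures.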

Additional observations from a re-analysis of the deposited data

Results flagged for a closer look

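With 1 array per arm, the difference between the ethanol and the acetaldehyde response (each exposed array minus its own control, log2) could not be tested. For 12 proteasome genes and the medians of 2 roles the responses had opposite signs, the 12 of 36 genes standing against 37.7% of all genes. Ethanol was above its control and acetaldehyde below in all of these except PSMD9, where the response to ethanol was lower by a difference of -0.24. The ethanol response exceeded the acetaldehyde response by 0.70 for PSME1, 0.58 for PSMC2, 0.50 for PSMC4, 0.45 for PSMB3 and 0.45 for PSMB2. It did so by 0.37 for PSMB6, 0.36 for PSMD6, 0.32 for PSMD11, 0.31 for PSME3, 0.21 for PSMF1 and 0.13 for PSMA2. For the medians the gap was 0.58 over the activators and 0.37 over the beta ring. Among these genes the acetaldehyde difference was at most 0.22 in size, and the spread of an unexposed pair within 1 experiment was not measured.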

How the results depend on the processing

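Of 782 alternative values 682 moved by less than 0.1 (log2), or within 1.5 times for counts, and no value past 1.5-fold as reported changed sign. PSMA4 with acetaldehyde, 0.11, was -0.70 against control 1. The 34 genes above control 1 with ethanol stayed there in 32 under joint quantile normalization, 32 with centred arrays, 31 against control 2 (other controls were used after joint normalization) and 34 under the other alternatives. The count at least 1.5-fold higher with ethanol, 3, was 1 under joint quantile normalization, 1 with centred arrays, 1 at 2-fold, 18 at log2 0.322 and 12 against control 2, the 1 gene at 2-fold being PSME2. Of all 10373 genes 564 were at least 1.5-fold higher as reported, 425 under joint quantile normalization and 1479 against control 2. At 2-fold 1.17% of all genes were higher, and at log2 0.322 17.1%. Against control 2 the ethanol medians were 0.79 for the ATPases and 0.47 for the lid. Against control 1 the acetaldehyde median over all 36 genes was -0.0714. Of these genes 14 were above control 1, against 49.3% of all genes, and 2 at least 1.5-fold lower, against 1445 of 10373. The medians were -0.51 for the ATPases, -0.30 for the lid and 0.15 for the activators. With acetaldehyde 1 gene was higher at log2 0.322, against 5.45% of all genes. Between the controls, joint quantile normalization put 13 genes above control 1, against 51.6% of all genes, and the alpha and beta medians at 0.0208 and -0.00678. The count 1.5-fold higher there, 1, was 0 under joint quantile normalization, 0 with an offset of 50, 2 without the filter, 2 at log2 0.322 and 0 at 2-fold, and the count lower, 4, was 14 at log2 0.322 and 0 at 2-fold. Of all genes 1296 of 10373 were 1.5-fold higher under joint quantile normalization, and 3889 of 18417 without the filter. At log2 0.322, 29.6% of all genes were higher and 24.0% lower, and at 2-fold 4.25% and 4.85%. The cause of these shifts was not tested. limma called 0 proteasome genes in every alternative run; at an unadjusted p under 0.05 it found 5 of them in most, 2 under joint quantile normalization and 0 without the block. No paired analysis was possible because each arm had 1 array and no replicate number to pair by, apart from the limma fit with the experiment as a block, which pairs each exposure with its control. Leaving out an array leaves no residual degree of freedom. Signal near the filter limits PSMD4, PSMD9, PSMB8, PSMB9 and ERAP1.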
